A study of Mus musculus with 28 samples.

Results

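The regions described here are 622 promoter regions of mouse embryonic stem cells that carried the histone mark H2BK120ac in the groups coded TD and TT and little of it in the groups coded ED and ET. A region was taken where its H2BK120ac coverage, scaled to sequencing depth (CPM), was 2 or more in both TD and TT and below 1 in both ED and ET, and where it overlapped a 5 kb window around a transcription start site (TSS). Of 25958 regions that overlapped a TSS window, 2.4% passed, out of 127646 regions in all. The regions were chosen by these H2BK120ac values, which are therefore given as a description with no test.

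The cells carried an inducible knockout of the forkhead factor FOXD3 (FOXD3-iKO), and all groups used here were asynchronous or not labelled by phase, were grown in L2i medium and had a treatment time of 24 h. CUT&Tag, in which an antibody tethers a transposase to chromatin carrying a mark, was run on 12 H2BK120ac samples, 3 each in ED, ET, TD and TT. H3K27ac had 2 samples of solvent-treated cells (EtOH) and 2 of cells given 4-hydroxytamoxifen (4HT), which induces the loss of FOXD3. The labels do not spell out ED, ET, TD and TT, so the groups keep their codes, and the labels do not say how many clones of the line were used. The replicates of each group are merged into 1 deposited column, so no spread between replicates and no test could be had for any value below.

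In H2BK120ac a lysine near the end of histone H2B is acetylated. The same lysine can instead be ubiquitinated, a mark laid down as RNA polymerase II transcribes a gene. H3K27ac, an acetylated lysine of histone H3, marks active promoters and enhancers. In embryonic stem cells many promoters of growth and housekeeping genes are rich in CpG and are bound by general activators. The tumour suppressor p53 is a transcription factor that binds a pair of related short motifs at target genes such as Mdm2 and switches on arrest, repair and death programmes.

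The promoter sequences of a few members are shown because the genes named most often below fall into a p53 group and a growth group. The following 30-base stretches lie inside member regions and hold a pair of p53 core motifs, whose span is in capitals. They were read from RefSeq promoters on GRCm38.p6, 5′ to 3′ on the strand of the gene.
Aen, chr7:78895932-78895961 (+): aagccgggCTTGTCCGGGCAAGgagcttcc
Gtse1, chr15:85859940-85859969 (+): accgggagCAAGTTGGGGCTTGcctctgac
Plk2, chr13:110395033-110395062 (+): tgctcgctCTTGCTCGCACAAGcgaagcag
Rchy1, chr5:91962622-91962651 (-): tgacagagCTTGTCTCCTCAAGgtgacgac
Trp53, chr11:69580279-69580308 (+): cggaaggaCTTGCCCTTACTTGttatggcg
The pair lay within 15 bases of the annotated TSS of Aen, Gtse1 and Plk2 and further upstream in Rchy1 and Trp53. Aen is a nuclease of apoptosis, Gtse1 binds p53 in G2 phase, Plk2 is a stress-responsive kinase, and Rchy1 is a ubiquitin ligase of p53. A pair was found in 26 member promoters, and these 5 were picked from them for their link to p53. Others were promoters of genes not listed below as p53 targets, such as Dhx15, Tnpo2 and Pa2g4. The promoters of the p53 targets Mdm2, Bax, Btg2 and Fas were not among the 26. A match is a description of letters and not evidence of binding.

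Of the growth and signalling genes, the 250 bases before the TSS are shown for 4 members. Capitals mark GC boxes (GGGCGG or its reverse complement) in Traf4, a CCAAT box in Junb, the short cAMP response element TGACGT in Hnrnpa2b1 and the YY1 motif AAGATGGC in Eif4a1.
Traf4, chr11:78165551-78165800 (-): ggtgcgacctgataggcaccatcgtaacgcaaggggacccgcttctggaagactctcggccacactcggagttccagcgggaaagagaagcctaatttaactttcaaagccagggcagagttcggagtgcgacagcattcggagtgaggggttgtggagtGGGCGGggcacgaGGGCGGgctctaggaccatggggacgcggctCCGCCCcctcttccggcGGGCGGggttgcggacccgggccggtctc
Junb, chr8:84978749-84978998 (-): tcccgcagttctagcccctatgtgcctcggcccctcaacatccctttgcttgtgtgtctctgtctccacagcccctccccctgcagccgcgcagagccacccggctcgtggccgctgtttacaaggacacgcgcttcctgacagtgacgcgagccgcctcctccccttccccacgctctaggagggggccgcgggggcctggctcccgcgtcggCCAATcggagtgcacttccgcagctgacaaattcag
Hnrnpa2b1, chr6:51469895-51470144 (-): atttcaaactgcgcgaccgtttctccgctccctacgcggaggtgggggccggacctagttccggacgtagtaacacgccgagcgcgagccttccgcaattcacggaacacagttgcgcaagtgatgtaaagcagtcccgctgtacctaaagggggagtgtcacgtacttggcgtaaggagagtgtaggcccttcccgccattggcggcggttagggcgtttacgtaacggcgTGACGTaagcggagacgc
Eif4a1, chr11:69672424-69672673 (-): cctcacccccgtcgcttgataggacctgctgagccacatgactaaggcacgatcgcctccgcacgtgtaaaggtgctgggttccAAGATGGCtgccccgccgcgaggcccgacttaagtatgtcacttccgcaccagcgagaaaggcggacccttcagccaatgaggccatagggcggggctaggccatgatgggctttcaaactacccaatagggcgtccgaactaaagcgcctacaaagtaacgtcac
Traf4 and Junb were among the members with the highest H2BK120ac, Hnrnpa2b1 stands for the hnRNP genes and Eif4a1 for the translation factors. These sequences were picked after the values were seen.

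Among the 622 members, H2BK120ac had a median of 3.41 CPM in TD (2.01 to 19.3) and 3.15 CPM in TT (2.004 to 15.8). In ED the median was 0.466 CPM and the highest value 0.993 CPM, and in ET they were 0.527 and 0.997 CPM. No coverage at all was found in ED for 85 members (13.7%), in ET for 61 (9.81%) and in both for 18. It was commoner over all TSS-window regions, at 30.8% in ED and 30.8% in ET, where both medians were 0.445 CPM. Missing coverage in ED or ET was thus not particular to members. The gaps between ED or ET and TD or TT follow from the rule. Read from the commonest value of each column, a single fragment was worth 0.445 CPM in ED and ET, 0.412 in TD and 0.415 in TT, so the lower limit of 2 CPM stood for a mean pile-up of 4.86 fragments in TD and 4.82 in TT, and the upper limit of 1 CPM for one of 2.25 in ED and ET. A pile-up is a depth per covered base and not the number of fragments in a region, so no counting interval is given for any region.

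**Figure D1:**
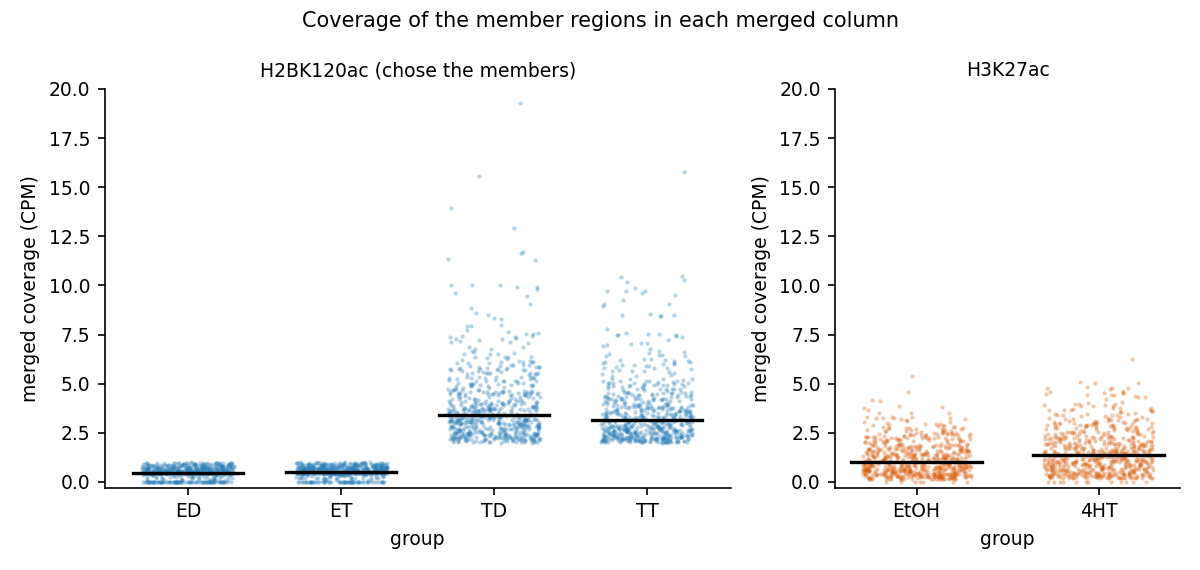
Coverage of the 622 member regions (points, CPM) in the merged columns ED, ET, TD and TT of H2BK120ac and EtOH and 4HT of H3K27ac, with the median of each column as a bar. The rule set the gap between ED or ET and TD or TT, while H3K27ac, which the rule did not use, ranged from 0 to 6.26 CPM.

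The mirror-image pattern was rarer at promoters. With ED and ET at 2 CPM or more and TD and TT below 1, 31 TSS-window regions passed, or 0.119%. Over the whole genome the difference was smaller, with 1390 regions passing the TD and TT rule and 684 its mirror image, so that 44.7% of the former and 4.53% of the latter overlapped a TSS window. A further 41 TSS-window regions reached 2 CPM in all 4 groups.

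Members close to the limits differed little from regions just outside. Dek, a chromatin protein gene, was inside with 2.01 CPM in TD, and Fem1b was outside with 1.99 CPM. Pcbp1, which encodes an RNA-binding protein, was inside with 0.993 CPM in ED, and Gtf2e1, a general transcription factor gene, outside with 1.001 CPM. Glrx3 missed the rule only by an ET value of 1.002 CPM although TD and TT stood at 8.12 and 9.54 CPM. In all, 266 TSS-window regions failed only through TD, 363 only through TT, 102 only through ED and 154 only through ET.

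The strongest members by the mean of TD and TT included signalling and stress genes. Traf4, an adaptor of TNF receptor signalling (chr11:78165408-78165968), had 15.6 CPM in TD, 10.2 in TT, 0.111 in ED and 0.445 in ET. At the Junb promoter (chr8:84978722-84978968), which drives a subunit of the AP-1 factor, the values were 14.0, 8.57, 0.404 and 0.537 CPM in the same order. A region of Mdm2 (chr10:117709943-117710493), the ubiquitin ligase that restrains p53, had 11.3, 10.4, 0.445 and 0.607 CPM. All 3 stood far above the lower limit in TD and TT.

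Ptp4a1, a tyrosine phosphatase gene, had 11.6 CPM in TD and 9.60 in TT. Exoc4, of the exocyst complex, had 11.7 and 9.26 CPM, and Btg1, an antiproliferative gene, 12.9 and 7.37 CPM. Cd81, a tetraspanin gene, had 9.84 and 9.04 CPM. The highest member of all had 19.3 CPM in TD and 15.8 in TT. It overlapped a window but lay 37595 bp from the nearest protein-coding TSS that could be placed, that of Gpr157.

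The rule asked for overlap with a TSS window, so only the place of members relative to other TSS-window regions is described. Members were wider, with a median of 553.5 bp against 431 bp of all TSS-window regions. Width was not matched in the shares below. A protein-coding TSS lay inside 339 of the 622 (54.5%), against 42.7% of all TSS-window regions and 55.6% of those with a mean H3K27ac of 1 CPM or more. Another 164 members lay off the TSS but within 1 kb, and 129 of these (78.7%) had their centre downstream of it, against 60.4% of all such TSS-window regions and the same 60.4% where H3K27ac was 1 CPM or more. A further 50 members lay 1 to 5 kb away. The remaining 69 (11.1%) were over 5 kb from any protein-coding TSS that could be placed, and 38 of them lay inside a protein-coding gene span. A TSS was placed for 20353 of 21900 protein-coding genes, so some of the 69 may lie at a promoter that was not placed. The share of members over 5 kb away compares with 23.5% of all TSS-window regions.

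**Figure D2:**
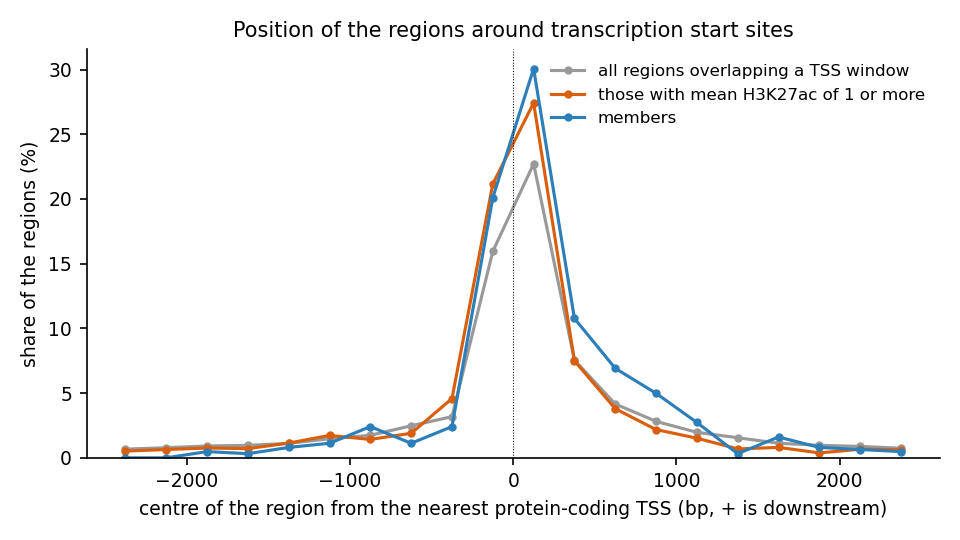
Share of regions (%, vertical axis) by the distance of their centre from the nearest protein-coding TSS (bp, positive is downstream) for the 622 members, for the 25958 regions overlapping a TSS window and for the 4216 of these with a mean H3K27ac of 1 CPM or more. All sets peaked at the TSS, and members held a larger share than both other sets between 250 and 1250 bp downstream.

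Several members were parts of wider marked promoters. Joined where the gap was 1 kb or less, the 622 members formed 538 loci, of which 79 held more than 1 member. The genes with 3 members were Junb, Mdm2, Hnrnpu, Ddx3x, Pcf11 and Lyrm7. Beside the Mdm2 member given above, which lies downstream of the TSS, the member over the TSS had 4.54 CPM in TD and 5.41 in TT, and that upstream had 10.02 and 9.49 CPM. At Hnrnpu, which encodes a nuclear scaffold protein that binds RNA, the 3 members had 3.53 to 9.90 CPM in TD and 2.16 to 6.43 in TT. At Pcf11, a gene of the machinery that cleaves the ends of transcripts, they had 2.02 to 3.76 CPM in TD. A second gene's TSS lay within 1 kb of 74 members (11.9%), against 5.32% of TSS-window regions and 10.5% of those with H3K27ac of 1 CPM or more, so most of the gap to all regions was also seen at promoters with H3K27ac.

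Chromosome X held few members, 8 of 938 TSS-window regions (0.853%). The autosomes ranged from 1.73% on chromosome 1 to 3.36% on chromosome 8. Among regions with H3K27ac of 1 CPM or more the share on X was 4.67%, close to the 4.80% on chromosome 19.

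Regions outside the rule had higher TD and TT on average the nearer they lay to a member. Within 500 bp of a member, 214 such regions averaged 2.64 CPM in TD, 2.27 in TT, 0.566 in ED and 0.656 in ET. TD over ED and TT over ET were both at least 2-fold higher, on log2(value + 0.4), in 94 of them (43.9%), against 6.04% of all 25336 TSS-window regions outside the rule. The share fell to 30.1% at 500 to 1000 bp, 24.2% at 1000 to 2500 bp, 18.5% at 2500 to 5000 bp and 10.3% at 5000 to 10000 bp. Between 20000 and 50000 bp it was 6.54%. Over all regions outside the rule, in a TSS window or not, it was 3.95%. The opposite, both at least 2-fold lower, was met by 0% within 500 bp and 4.03% of TSS-window regions outside the rule. Over all regions outside the rule the opposite was the commoner, at 7.73%. The mix of regions changed with the gap, since 100% overlapped a TSS window within 500 bp and 18.4% at 5000 to 10000 bp. Distance and this mix were not separated. A fragment that spans neighbouring regions counts in each, and its part in this was not tested.

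**Figure D3:**
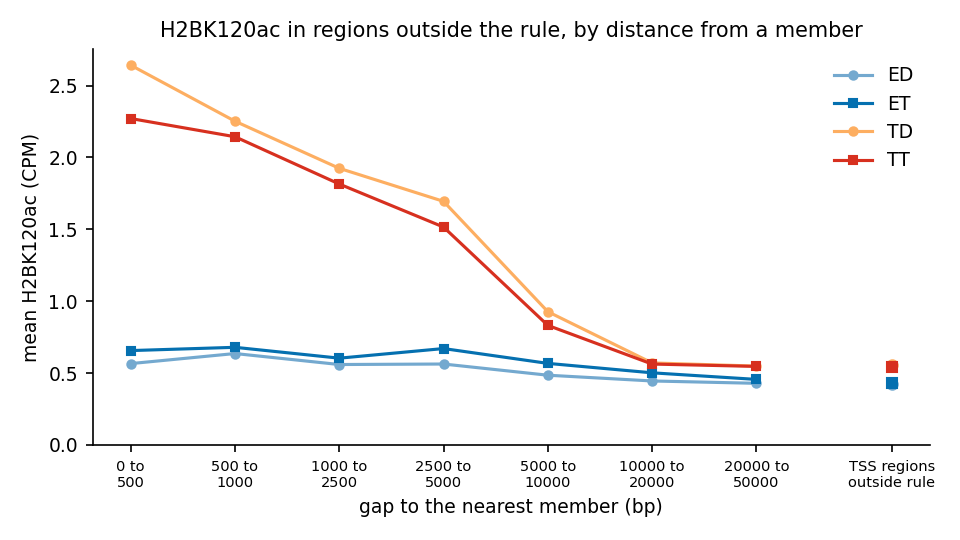
Mean H2BK120ac (CPM) of regions outside the rule, by their gap to the nearest member (bp), in ED, ET, TD and TT, with all TSS-window regions outside the rule at the right. TD and TT fell from 2.64 and 2.27 CPM within 500 bp to 0.570 and 0.563 CPM at 10000 to 20000 bp, while ED and ET lay between 0.429 and 0.679 CPM over the gaps shown.

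TT was lower than TD in 382 of the 622 members, and in 9855 of the 25958 TSS-window regions. The median log2 difference of TT against TD was -0.11, and it turned to 0.02 after quantile normalization, so the order of the 2 groups over the members depends on scaling. On log2(value + 0.4), 2 members were at least 2-fold higher in TT, the condensin subunit gene Ncaph with 2.10 CPM in TD and 5.01 in TT, and the peroxiredoxin gene Prdx6 with 2.41 and 5.51 CPM. In 5 members TT was lower by that size. Over all TSS-window regions 11.8% were higher and 11.5% lower, but the rule used both columns and nothing is read from this. Cnn3, a calponin gene, had 5.27 CPM in TD and 2.08 in TT, and Marcksl1 had 5.32 and 2.32 CPM. Because the rule sets a minimum in both groups, large differences between TD and TT could not occur among weak members.

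H3K27ac, measured with another antibody in other samples, was present at most members. Its median was 1.04 CPM in EtOH (0 to 5.40) and 1.39 CPM in 4HT (0 to 6.26). Over all TSS-window regions the medians were 0.297 and 0.316 CPM. EtOH reached 1 CPM in 323 members (51.9%), against 14.1% of TSS-window regions. In the 768 regions with the same H2BK120ac values but no TSS window the medians were 0.397 and 0.451 CPM, and in the 41 TSS-window regions with H2BK120ac in all 4 groups they were 4.02 and 5.20 CPM. In the 31 TSS-window regions of the mirror-image pattern the medians were 1.55 CPM in EtOH and 2.30 CPM in 4HT. EtOH reached 1 CPM in 71.0% of these 31 regions. Members thus lay above the distal regions and below the mirror-image promoters and the promoters marked in all 4 groups. H3K27ac above that of all TSS-window regions was therefore not particular to members.

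The share of TSS-window regions that were members changed with H3K27ac in EtOH. It was 0.204% where EtOH had no coverage, 1.42% at 0.25 to 0.5 CPM, 3.40% at 0.5 to 1, 7.99% at 1 to 2 and 12.3% at 2 to 4 CPM. Above 4 CPM it was 2.25%, or 4 of 178 regions. Of those 178, 49.4% had TD and TT of 2 CPM or more but only 6.74% had ED and ET below 1, so the limit on ED and ET removed them. Among regions 500 to 1000 bp wide the shares were 0.309% at no coverage, 11.0% at 2 to 4 CPM and 1.43% above 4 CPM. Over all widths the share of mirror-image regions was also higher where EtOH was higher. It was 0% at no coverage, 0.546% at 1 to 2, 0.539% at 2 to 4 and 1.69% (3 regions) above 4 CPM. Across the members themselves Spearman's rho between TD and EtOH was 0.03 over 622 regions, against 0.578 over all TSS-window regions. The rule narrows the range of TD among members, so nothing is read from the low value.

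The member highest in EtOH had 5.40 CPM there and 4.59 in 4HT and lay inside the gene span of Ddx6. The nearest protein-coding TSS that could be placed, that of Treh, was 67968 bp away. Mcm5, part of the helicase that licenses replication, had 4.57 CPM in EtOH and 3.50 in 4HT. Hnrnpa0 had 4.19 and 3.96 CPM, and Jade1, a subunit of a histone acetyltransferase complex, 3.89 and 3.44 CPM. A region 4945 bp from Klf9 had 4.13 and 6.26 CPM. At the other end, 3 members had no H3K27ac in either column. The strongest of these had 10.04 CPM of H2BK120ac in TD and 9.87 in TT. The nearest protein-coding TSS that could be placed, that of Rpl34-ps1, was 83442 bp from it.

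Between 4HT and EtOH, H3K27ac at members moved as at other promoters with the mark. The median log2 difference on log2(value + 0.2) was 0.30 over the members and 0.09 over all TSS-window regions. Where mean H3K27ac was 1 CPM or more it was 0.35 over 370 members and 0.34 over 4216 regions. At least 2-fold higher in 4HT were 45 members (7.23%), against 8.5% of TSS-window regions, and at least 2-fold lower were 10 members (1.61%), against 5.3%. In the well-marked subset the counts were 22 higher (5.95%, against 6.05%) and 2 lower (0.541%, against 0.403%). After median centring the 45 higher and 10 lower members became 14 and 13, and after quantile normalization 16 and 13. The share of members that passed was near the background or below it, and the excess of higher over lower calls depended on scaling.

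The largest rises among members with a mean H3K27ac of 1 CPM or more included lipid, ribosome and stress genes. Srebf1, a master regulator of lipid synthesis, had 0.398 CPM in EtOH and 1.86 in 4HT, a ratio of 4.67. Aen had 1.03 and 3.22 CPM, a ratio of 3.12. A member at the Rpl4 and Zwilch promoters, genes of the ribosome and of the kinetochore, had 1.91 and 4.63 CPM, a ratio of 2.43. The member named for Ddit3, a stress response factor gene, had 0.518 and 1.86 CPM. It lay 761 bp upstream of that TSS and inside the span of Mbd6, whose TSS was also within 1 kb. Msh6, a mismatch repair gene, had 0.481 and 1.61 CPM. Without replicate columns none of these ratios has an error.

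In the other direction Cdc34, a ubiquitin-conjugating enzyme gene, had 1.61 CPM in EtOH and 0.390 in 4HT, a ratio of 0.243. A neighbouring member of Cdc34 had 0.896 and 1.51 CPM and so pointed the other way. Gart, a gene of purine synthesis, had 1.70 and 0.705 CPM.

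**Figure D4:**
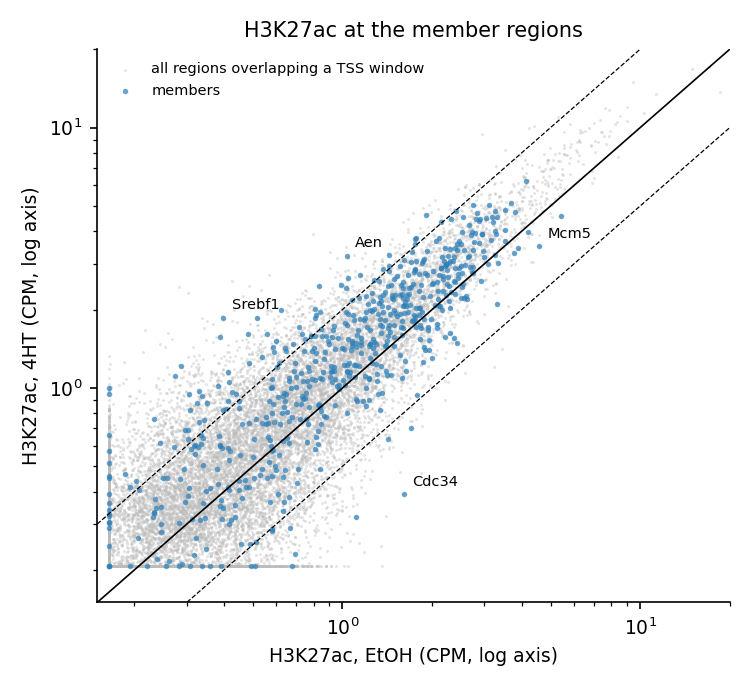
H3K27ac in EtOH (horizontal) and 4HT (vertical), in CPM on log axes, for members and for all TSS-window regions with coverage in both columns, with the line of equality and dashed lines at 2-fold. Most members lie along the line of equality, shifted slightly toward 4HT, with Srebf1 and Aen above the upper dashed line and Cdc34 below the lower one.

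Over genes, 535 of 13802 with a TSS-window region had a member (3.88%), and 382 of the 3074 with a region of mean H3K27ac of 1 CPM or more (12.4%). The p53 targets were often among them. Of 19 measured targets of arrest and feedback, 7 had a member (36.8%), and of 15 measured targets of cell death, 6 did (40%). Both lists were drawn up with earlier results of these data known, so their shares are not independent evidence.

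In the arrest and feedback list, Gtse1 had 7.38 CPM in TD, 6.15 in TT, 0 in ED and 0.724 in ET. At Plk2 the TD and TT values were 9.63 and 6.23 CPM, and the ED and ET values 0.665 and 0.887 CPM. Sesn2, a stress-induced inhibitor of growth signalling, had 8.01 and 4.35 CPM in TD and TT. Btg2, an antiproliferative gene, had 4.45 and 5.18 CPM, and Zmat3, an RNA-binding zinc finger gene, 3.65 and 3.71 CPM. The member counted for the polymerase gene Polk lay at a promoter shared with Cert1, with 2.57 and 2.05 CPM.

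Of the death genes, Bax, which permeabilises mitochondria, had members of 7.53 and 4.599 CPM in TD and 3.88 and 4.32 CPM in TT. Pidd1, a scaffold of caspase activation, had 5.81 CPM in TD and 4.23 in TT, and Siva1 had 5.76 and 4.59 CPM. Fas, the death receptor, had no coverage in ED or ET and 2.52 and 3.15 CPM in TD and TT. Apaf1, of the apoptosome, had 2.91 and 2.22 CPM. Every one of these stood above 2 CPM in TD and TT by the rule.

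Targets without a member were sorted by their region of highest mean TD and TT. In 4 of the arrest list and 4 of the death list TD and TT were both 2 CPM or more, and ED or ET of 1 CPM or more kept them out. The best region of Cdkn1a, the p21 inhibitor of cyclin-dependent kinases, had 13.6 CPM in TD, 12.3 in TT, 1.25 in ED and 2.31 in ET. Ccng1 had 27.1, 21.0, 2.12 and 3.28 CPM, and the death gene Bbc3 had 19.8, 15.1, 1.56 and 2.502 CPM. The other 8 and 5 targets had TD or TT below 2 CPM, and of these Sesn1, Plk3 and Perp also had an ET value of 1 CPM or more. Ccng2 had 0.412 CPM in TD and 0.478 in TT. So the limit on ED and ET excluded some of the targets with the highest TD and TT.

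**Figure D5:**
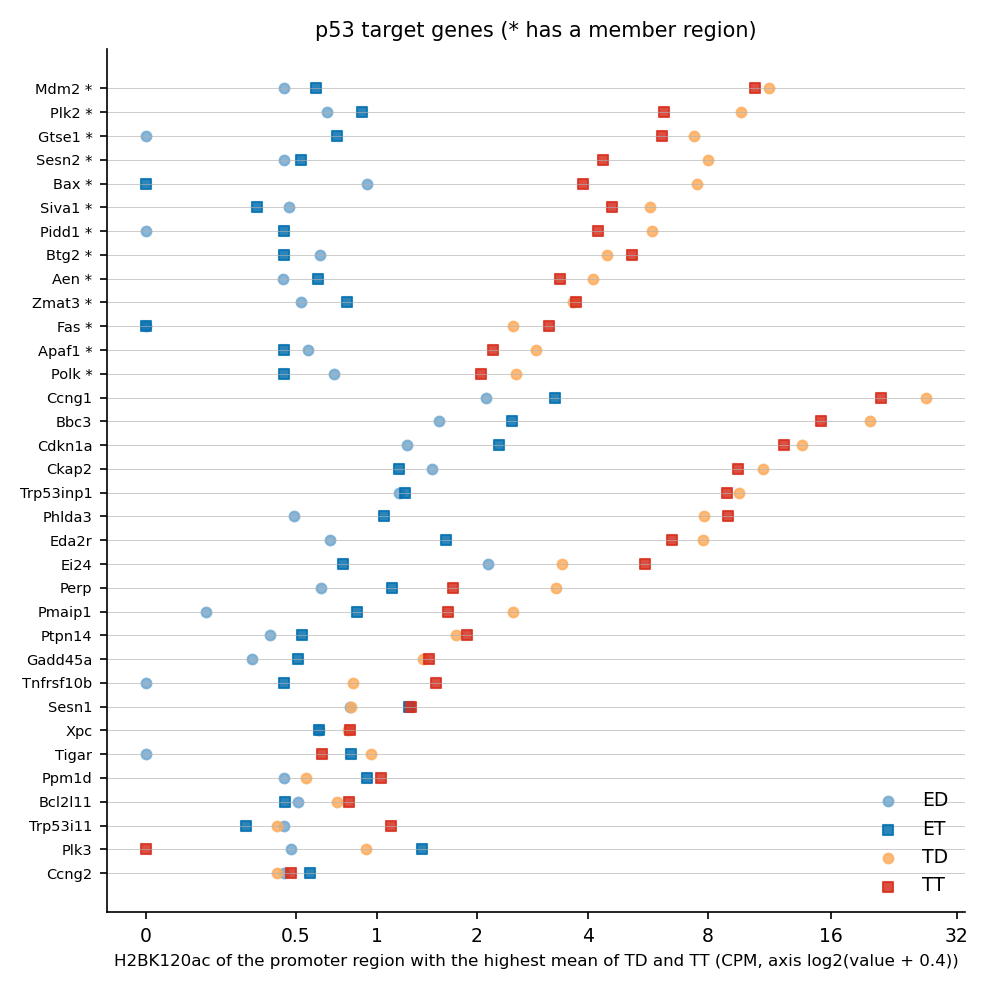
H2BK120ac (CPM, axis on log2(value + 0.4)) in ED, ET, TD and TT for the promoter region of highest mean TD and TT of each measured p53 target. Genes with an asterisk have a member, and below them Ccng1, Bbc3 and Cdkn1a show high TD and TT beside ED or ET values above 1 CPM.

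H3K27ac at the p53 target members differed between 4HT and EtOH by somewhat more in the median than at all members. The median log2 difference was 0.45 over the 10 members of the arrest list and 0.41 over the 8 of the death list, against 0.30 over all members. After median centring the medians were 0.26 and 0.24, against 0.12, and after quantile normalization 0.21 and 0.29, against 0.05. Before scaling, the 17 members of cytosolic ribosomal protein genes had 0.54 and the 3 of the housekeeping list 0.65. The 5 cell cycle members had 0.08 and the 4 pluripotency members 0.11. A larger median was thus not particular to p53 targets. Their members belong to 7 and 6 genes, so several regions of 1 gene count separately. In each p53 list 7 members were higher in 4HT, of 10 and of 8, against 462 of all 622 members (74.3%). A difference of at least 2-fold was met by 1 arrest member, in Mdm2 (0.818 CPM in EtOH and 1.90 in 4HT), and by 2 death members, in Aen and Pidd1 (0.383 and 1.02 CPM), and after either scaling these counts became 0 and 1. Other members of the same genes were lower in 4HT, with 1.11 and 0.908 CPM upstream of Mdm2 and 0.473 and 0.415 CPM at Pidd1. Plk2 was lower too, with 0.488 and 0.251 CPM. A single fragment was worth 0.165 CPM in EtOH and 0.207 in 4HT, so the differences at Plk2 and Pidd1 rest on few fragments.

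Genes of the p53 circuit outside the lists were also members. The promoter of Trp53 itself, which it shares with Wrap53 on the other strand, had 3.88 CPM in TD, 4.74 in TT, 0.962 in ED and 0 in ET. Rchy1 had 4.74, 5.13, 0.492 and 0.714 CPM. Both were named after their values were seen.

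Immediate early genes, which respond to signals without new protein synthesis, had a member in 5 of 25 (20%): Fos, Jun, Junb, Ier2 and Mcl1. Fos had 3.35 CPM in TD and 2.12 in TT, with 0.283 CPM of H3K27ac in EtOH and 0.207 in 4HT. Jun had 3.62 and 3.31 CPM, with 0.193 and 0.415 CPM of H3K27ac. Mcl1, which encodes a survival protein, had 7.30 and 5.99 CPM, with 3.51 and 4.81 CPM of H3K27ac. At the Junb promoter H3K27ac was 0.266 CPM in EtOH and had no coverage in 4HT, while another Junb member 1915 bp off the TSS had 1.33 and 2.57 CPM. With 1 fragment worth 0.165 CPM in EtOH and 0.207 in 4HT, no direction is read from Fos, Jun or the Junb promoter. Myc, Fosb and Egr2 had regions but no member.

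Of 17 measured pluripotency genes, 4 had a member (23.5%): Sox2, Klf5, Stat3 and Socs3. Sox2, a core factor of pluripotency, had 3.70 CPM in TD, 4.33 in TT, 0.798 in ED and 0.546 in ET, with 1.98 CPM of H3K27ac in EtOH and 1.84 in 4HT. Klf5 had 4.74 and 3.26 CPM in TD and TT. Nanog had 1.19 CPM in TD and 0.211 in TT and no member. The identity of the cells was checked by H3K27ac in EtOH, which near the stem cell markers was 14.9 CPM at Pou5f1, 3.40 at Zfp42, 2.68 at Nanog, 1.98 at Sox2, 1.76 at Tfcp2l1 and 0.411 at Klf4, while Esrrb had no measured region. Of the fibroblast feeder markers, 5 of 7 had a region, with EtOH at 0 to 0.309 CPM, 4HT at 0 to 0.505 CPM and Dcn at 0 in both.

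Cell cycle genes had members at Ccnb1, Cdk1, Mcm5 and Pcna (4 of 17, 23.5%), and housekeeping genes at Eef1a1 and Ppia (2 of 13, 15.4%). Heat shock genes had them at the shared Hspd1 and Hspe1 promoter and at Dnaja1 and Dnajb1 (4 of 13, 30.8%). These shares, and those of the immediate early and pluripotency genes, compare with 3.88% of all genes. Of genes with H3K27ac of 1 CPM or more, 12.4% had a member. Pcna, the sliding clamp of replication, had 4.18 CPM in TD and 2.56 in TT. Dnajb1, a co-chaperone gene, had 4.13 and 5.15 CPM. Traf4 was the single gene with a member of 14 (7.14%) in the MAPK and stress kinase list. None of 7 measured genes of a wider list of fibroblast feeder markers had a member.

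Gene families, picked after the member names were seen, differed in how often they held a member. Of 20 measured hnRNP genes, which package and splice nascent RNA, 9 had a member (45%), and of the 18 with a region of mean H3K27ac of 1 CPM or more all 9 did (50%, against 12.4%). Besides Hnrnpu and Hnrnpa0, Hnrnpa2b1 had members of 6.87 and 4.53 CPM in TD and 5.22 and 3.68 CPM in TT, both within 1 kb of the Cbx3 TSS. Hnrnpa3 had 3.31 and 2.05 CPM and Hnrnpc 3.65 and 3.31 CPM. At Hnrnpk, Hnrnpd, Hnrnpdl and Hnrnpa1 too a second gene starts within 1 kb, so the mark cannot be given to either gene.

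Cytosolic ribosomal protein genes had a member in 13 of 77 (16.9%), or 12 of 43 with H3K27ac of 1 CPM or more (27.9%). Rpl19 had 5.15 CPM in TD and 6.08 in TT, and Rpl21 had 4.42 and 3.22 CPM. The 17 members had a median log2 difference of H3K27ac of 0.54, and 0.34 and 0.24 after median centring and quantile normalization. Rpl31 had 0.623 CPM in EtOH and 1.99 in 4HT. Mitochondrial ribosomal protein genes had a member in 2 of 74 (2.70%, against 3.88% of all genes).

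Translation initiation factor genes had a member in 6 of 53 (11.3%), or 6 of 26 with H3K27ac of 1 CPM or more (23.1%). Among them were Eif4a1 and Eif4a2, which encode helicases that unwind messenger RNA. The stronger Eif4a2 member had 6.36 CPM in TD and 4.20 in TT. DEAD and DEAH box helicases had a member in 7 of 50, or 6 of 15 with H3K27ac of 1 CPM or more (40%), with Dhx15 at 5.48 and 4.66 CPM. Kinesins held 3 of 32 (9.38%), or 3 of 8 with H3K27ac of 1 CPM or more (37.5%). Among these was the mitotic motor gene Kif18b at 7.60 and 7.22 CPM. Solute carriers (5 of 273) and Zfp genes (10 of 305) were at 1.83% and 3.28%, near or below the 3.88% of all genes, and none of 24 Hox genes had a member.

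Members overlapped 408 RefSeq promoters of 342 genes, each 300 bases long. Their median GC content was 63.3% and their median number of CpG was 25. Promoters with H3K27ac of 1 CPM or more in EtOH had 62.7% and 24, and all 21263 promoters 56.3% and 13. Members were thus as rich in CpG as other promoters with H3K27ac.

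Of 12 motifs searched on both strands, most were found as often in members as in promoters with H3K27ac. The GC box was in 69.1% of member promoters, 70.0% of promoters with H3K27ac and 46.2% of all. CCAAT was in 43.6%, 39.5% and 38.2%, and the ETS core CCGGAAG in 22.8%, 21.8% and 11.6%. AAGATGGC was in 7.84%, 7.66% and 3.05%, TGACGT in 14.95%, 14.93% and 8.49%, and the NRF1 motif in 14.5%, 13.9% and 6.38%. The MYC E-box CACGTG was in 11.5%, 11.9% and 7.84%, and the AP-1 motif TGANTCA in 5.15%, 3.64% and 6.99%. TATAAA was in 4.66%, 5.84% and 12.6%, and the SRF CArG box in 1.47%, 1.23% and 1.52%. The single p53 motif was in 7.60%, 5.58% and 7.37%. The pair of p53 cores, which can overlap the single motif, was in 26 member promoters (6.37%). It was in 3.76% of promoters with H3K27ac, in 4.77% of promoters with a region and in 6.49% of all. The share in members was thus like that in all promoters and above that in promoters with H3K27ac or a region. The 26 count overlapping promoter entries separately, as for Aen and Rad1, and the difference was not tested.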

How the data were processed

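CUT&Tag coverage signal per region was deposited by the authors as CPM, per the names of the tables, with replicates merged into 1 column per group. The submitters' processing notes name mm10, and featureCounts and DESeq2 without a role. No source used here gives the aligner or coverage tool. Averages appear to skip bases that no fragment covered, which lifts sparse regions. A missing value was counted as 0. Each column's commonest value was taken for 1 fragment, which implies about 2246000 to 6077000 fragments per column. Folds used pseudocounts of 0.4 (H2BK120ac) and 0.2 (H3K27ac). Values of the 2 marks were not compared on 1 scale.

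Regions were linked to RefSeq genes (GRCm38.p6) with a TSS within 1 kb, or the nearest within 5 kb. Strand is that of the promoter table. For genes without an entry, the end of the gene span was used where it lay within 100 bp of the position expected from a TSS window. Protein-coding genes that met neither condition had no TSS here. Planned tests need separate replicates and were not run. The 16 IgG columns match no sample and were not used here, so background was not examined, and 12 cell cycle samples were not analysed here. The members, lists and families were chosen with earlier results of these data known. Named were the 15 strongest members, the 8 largest and 8 smallest H3K27ac folds where mean H3K27ac was 1 CPM or more, the 5 highest in EtOH, the 5 largest and 5 smallest TT over TD, listed genes, genes with several members and regions next to a threshold; the text gives a selection of these, and family genes, Cdkn1a and the other targets without a member, Trp53, Rchy1 and the printed promoters were added after their values were seen. The rule and the folds were tested on simulated data whose planted changes had higher pile-ups than most members, so the recovery of weak members was not probed. Python 3.11.15, pandas 2.3.3, numpy 2.4.6, scipy 1.17.1 and matplotlib 3.10.9 were used.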

Additional observations from a re-analysis of the deposited data

How the results depend on the processing

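No paired analysis was possible because each group is 1 merged column, and for the same reason no replicate could be left out. The 622 members became 1042 with TD and TT of 1.5 CPM or more, 284 with 3 or more, and 185 with ED and ET below 0.5, and lay between 494 and 704 under the other alternatives, 2 of which (joined loci and a protein-coding TSS within 1 kb) were chosen after seeing the data. The median H3K27ac log2 difference of 4HT against EtOH, 0.30, was 0.25 and 0.19 with pseudocounts of 0.5 and 1, 0.12 after median centring and 0.0495 after quantile normalization. The 45 members at least 2-fold higher became 14, 2, 14 and 16 under these settings, and 22 where mean H3K27ac was 1 CPM or more. Of the members, 118 reached 2 CPM of H3K27ac in EtOH. The median log2 difference of TT against TD turned from -0.11 to 0.0209 after quantile normalization. The cause of these shifts was not tested. Low pile-ups, without replicate columns, limit every single-region value.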
